A study of Homo sapiens with 8 samples.

Results

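Glycolysis and hypoxia-induced genes were followed across 4 groups of HEK293T cells, a human embryonic kidney line, that carried different CRISPR transcriptional activators. The set was a list of 40 gene symbols that covers glucose transporters, the enzymes of glycolysis, the kinases beside that pathway, the oxygen-sensing machinery and genes known to rise in low oxygen. Members were taken by symbol from tables of 19770 genes. Of the 40, 39 had a row, *CA9* is not analysed here, and 37 passed a filter of at least 1 CPM (counts scaled to library size) in at least 2 libraries and were tested.

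Every group received a pool of 4 gRNAs against the promoters of the fetal globin genes *HBG1* and *HBG2*, neither of which is a member of the set, and RNA was taken 72 h post-transfection. The control carried dCas9 with MCP-mCherry, a fluorescent protein fused to the MS2 coat protein (MCP) and so without an activation domain. CRISPR-DREAM carried dCas9 with MCP-MSN, whose activation domains derive from human transcription factors. The SAM system carried dCas9-VP64 with MCP-p65-HSF1, and dCas9-VPR is a direct fusion of the VPR activator to dCas9. gRNAs were MS2-modified in all groups but dCas9-VPR, whose direct fusion uses no MCP protein. Comparisons with dCas9-VPR therefore also differ in the guide and in MCP, and these cannot be told apart from the activator. Each group had 2 libraries, and the labels number them without saying whether they came from separate transfections, so a p-value measures the spread between these libraries. Cells were transiently transfected and measured in bulk, so a change in the share of cells that carry an activator cannot be told apart from a change within each cell.

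Glycolysis splits glucose to pyruvate in the cytosol, and lactate dehydrogenase then regenerates the NAD+ that the pathway needs. In low oxygen the prolyl hydroxylases EGLN1 and EGLN3 stop marking HIF-1α for destruction, and HIF-1 binds short DNA elements with a CGTG core and raises transcription of most enzymes of the pathway, of *SLC2A1* and of *VEGFA*. The HIF-1α protein is set mainly by its stability, so its mRNA level is not a readout of its activity. Many glycolytic enzymes exist as paired isozymes, of which one is abundant in most cells and the other is restricted to some tissues or induced.

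The target responded in every activator group, with *HBG2* at 0.838 and 1.29 CPM in control cells, 2187 and 2874 CPM under CRISPR-DREAM, 707 and 860 CPM under the SAM system and 218 and 201 CPM under dCas9-VPR. The depth estimated from the smallest CPM steps was 28.5 to 35.2 M reads per library, and the mitochondrial share of counts was 1.18% to 1.87%. Markers of the line were present, with *VIM* at 267 to 440 CPM, *KRT18* at 79.7 to 101 CPM, *NEFM* at 13.9 to 24.0 CPM and *PAX2* at 0.798 to 1.73 CPM. *KRT8*, an epithelial keratin, lay at 45.2 and 50.2 CPM in control libraries and at 78.5 to 113 CPM in the 6 activator libraries, so this marker moved with the groups, and its part in the results was not tested. Of markers that the culture should lack, *PECAM1* lay at 0.0320 to 1.17 CPM, *HBA1* at 0.687 to 1.21 CPM and *COL1A1* at 8.51 to 15.5 CPM. *PECAM1* lay at 0.0320 and 0.131 CPM in the control, at 0.457 to 0.570 CPM with CRISPR-DREAM and at 1.03 to 1.17 CPM with the SAM system, and *COL1A1* was at or below 9.0 CPM in the control and at or above 11.1 CPM in every activator library. *PTPRC* and *ALB* are not analysed here.

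The DNA near the start sites was read to show the letters that HIF can bind. Of the members, 35 matched a RefSeq promoter entry on GRCh38.p14, which spans 250 bases before to 50 bases after the first listed start. The letters ACGTG or GCGTG, searched on both strands, occurred in 25 of the 35 (71.4%), against 63.5% of the 10984 promoters of tested genes and 48.4% of the 27305 promoters of the table. ACGTG alone, with CACGTG counted on both strands, occurred in 15 of the 35 (42.9%), against 26.5% and 21.6%. The lines that follow show 1 match for each of 10 members, on the gene's strand from 5′ to 3′, with the matched letters, or their reverse complement, in capitals. Positions count the first capital from the start base as 0. The first 5 belong to genes that were higher with each activator and the others to genes that were not called higher with every activator, so that the letters can be set beside the values.

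*ALDOC* at -239 (chr17:28577120-28577144, minus strand): agtgcccggcACGTGgtaaagggat
*ENO2* at -118 (chr12:6914452-6914476, plus strand): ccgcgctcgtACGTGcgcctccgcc
*HK2* at -48 (chr2:74834069-74834093, plus strand): tgggcgtgcgCACGTcactgatccg
*PDK3* at -61 (chrX:24465215-24465239, plus strand): cgcgccgcgtACGTGcagcaaccga
*SLC2A1* at 25 (chr1:42958829-42958853, minus strand): gcaacagcgaGCGTGccggtcgcta
*PGK1* at -202 (chrX:78104036-78104060, plus strand): ggcgtgccggACGTGacaaacggaa
*LDHA* at -86 (chr11:18394467-18394491, plus strand): cccgactcacACGTGggttcccgca
*BNIP3* at -133 (chr10:131982042-131982066, minus strand): cacgcgccgcACGTGccacacgcac
*ANKRD37* at -143 (chr4:185396688-185396712, plus strand): gtgtttgtgtACGTGcggccgtggc
*EGLN1* at -13 (chr1:231422286-231422310, minus strand): gccgtggtgtACGTGcagagcgcgc

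The shown members were picked from those with a match. Of the 6 members called higher in all 3 comparisons that had a promoter entry, 5 held ACGTG or GCGTG (83.3%). Of the 29 other members 20 did (69.0%). ACGTG alone was held by 4 of the 6 (66.7%) and by 11 of the 29 (37.9%). The median share of G and C letters was 72.7% in the 6 windows and 68.7% in the 29. It was 65.7% for tested genes, and its part in the matches was not tested. These counts are a description, without a test. *P4HA2*, which was also higher with each activator, held neither run of letters in its window. A match is a description of the letters and not of binding.

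Relative to the control, a part of the set was higher with each activator, *SLC2A1*, *HK2*, *PDK3* and *P4HA2* among them, while *VEGFA*, *PGK1* and *EGLN1* passed with none of them on the deposited scale. The comparisons share the 2 control libraries. A member was called at a Benjamini-Hochberg adjusted p below 0.05 in limma's two-sided test over 15122 genes, and the log2 fold changes are on the log2(CPM + 0.5) scale. With CRISPR-DREAM 10 of the 37 members were called higher (27.0%, against 18.8% of all genes tested) and 1 was called lower (2.7%, against 9.25%), and the members' median log2 fold change was 0.08, beside 0.06 over all genes. With the SAM system 12 members were higher (32.4%, against 35.7%) and 4 were lower (10.8%, against 8.89%), and the members' median was 0.12, beside 0.16 over all genes. With dCas9-VPR 15 members were higher (40.5%, against 11.0%) and 0 were lower (against 6.68%), and the members' median was 0.19, beside 0.06 over all genes. The share of members called higher was thus near the share over all genes for the SAM system and above it for the other systems. With a filter of 10 CPM, 13 of 34 members were higher with the SAM system, against 3757 of 10183 genes.

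The split between higher and lower calls depended on the scale. When CPM values were rescaled by the median of ratios, which sets the median gene near 0, CRISPR-DREAM had 8 members higher and 4 lower, the SAM system 6 higher and 10 lower, and dCas9-VPR 11 higher and 0 lower. Over all 15122 genes the rescaled calls were 2135 higher and 2075 lower under CRISPR-DREAM, 2953 higher and 2937 lower under the SAM system, and 1179 higher and 1368 lower under dCas9-VPR. Higher calls made up 90.9% of the members' calls with CRISPR-DREAM on the deposited scale and 66.7% after rescaling, and 75.0% and 37.5% with the SAM system. Over all genes this share moved from 67.0% to 50.7% and from 80.1% to 50.1%. *HK2*, *P4HA2*, *PDK3* and *SLC2A1* were called higher with each activator on both scales. When each of the 8 libraries was left out in turn, 7 of the 11 calls with CRISPR-DREAM held in every refit (*SLC2A1*, *HK2*, *ALDOC*, *ENO2*, *PDK3*, *NDRG1* and *P4HA2*), as did 7 of the 16 with the SAM system (*SLC2A1*, *SLC2A3*, *HK2*, *PDK3*, *HIF1A*, *P4HA1* and *P4HA2*) and 4 of the 15 with dCas9-VPR (*SLC2A1*, *ALDOC*, *PGAM1* and *LDHA*). The other calls each missed the threshold in at least 1 refit. The number of members called higher with dCas9-VPR was 6 without control library 2 and 7 without either dCas9-VPR library, and with the SAM system it was 7 without SAM system library 1. Calls over all genes dropped in the same refits, from 1656 higher with dCas9-VPR to 316 without control library 2 and to 272 and 362 without dCas9-VPR library 1 and 2, and from 5398 higher with the SAM system to 3502. At the study's threshold, a fold change above 2 beside the adjusted p, 2 members passed with CRISPR-DREAM, *SLC2A1* and *ALDOC* (2.04% of all genes passed upward). *ALDOC* was the 1 member that passed with dCas9-VPR (0.463% of all genes), and 0 passed with the SAM system (3.89% of all genes). The number of members past this threshold was 0 with CRISPR-DREAM without CRISPR-DREAM library 2, and 0 with dCas9-VPR without control library 2 or after rescaling.

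**Figure D1:**
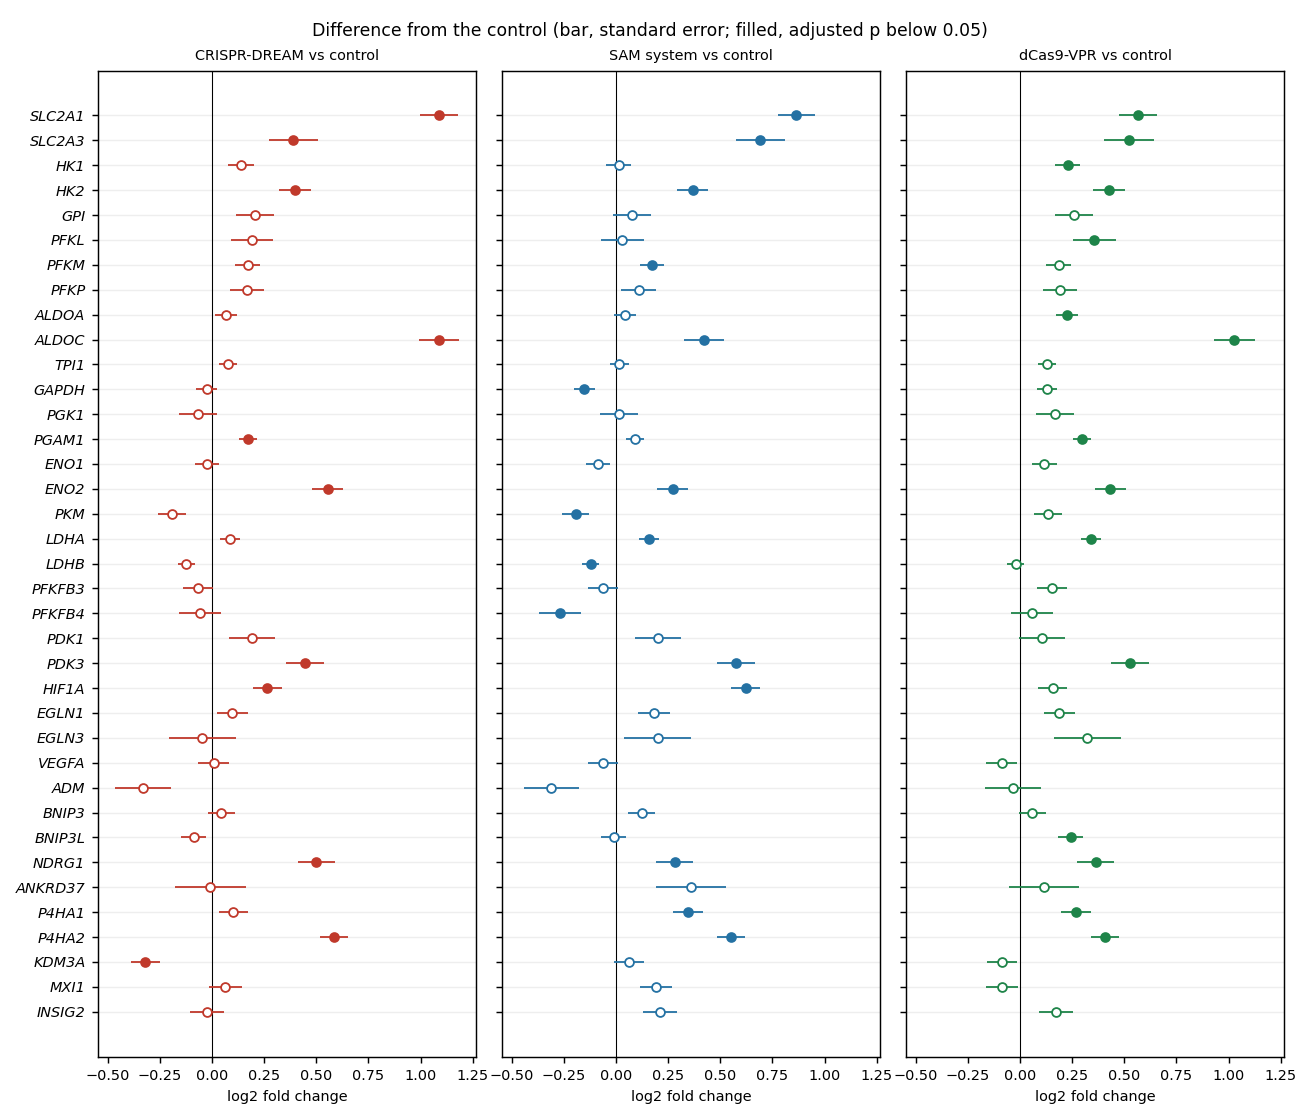
Log2 fold change from the control (x axis) for the 37 members tested (y axis, in the order of their roles from transport to hypoxia effectors), with 1 panel per activator. Bars are standard errors of the fit and filled points have an adjusted p below 0.05, and the points furthest to the right are *SLC2A1* with CRISPR-DREAM at 1.09, *ALDOC* with CRISPR-DREAM at 1.09 and *ALDOC* with dCas9-VPR at 1.03.

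Glucose enters cells through the SLC2A facilitators, and both members of this family in the set were called higher with each activator. Over all genes tested, 6.57% were called higher with each activator. *SLC2A1* encodes GLUT1, the widespread basal glucose transporter, and lies on chromosome 1 at 42925353 to 42958894 on the minus strand of hg38, with 10 exons in its canonical transcript. It lay at 22.8 and 23.1 CPM in control cells, at 46.2 and 52.7 CPM under CRISPR-DREAM, at 39.3 and 45.4 CPM under the SAM system and at 33.1 and 35.3 CPM under dCas9-VPR. All 6 activator libraries lay above the control, and the dCas9-VPR libraries lay below those of the other activators. The log2 fold change from the control was 1.09 (SE 0.09, adjusted p = 2.7e-05) with CRISPR-DREAM, 0.87 (SE 0.09, adjusted p = 9.15e-05) with the SAM system and 0.56 (SE 0.09, adjusted p = 0.00337) with dCas9-VPR. Between activators *SLC2A1* was higher with CRISPR-DREAM than with dCas9-VPR by 0.52 (adjusted p = 0.00602), and the difference of 0.22 between CRISPR-DREAM and the SAM system did not pass (adjusted p = 0.135).

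*SLC2A3*, which encodes the high-affinity transporter GLUT3, lies on chromosome 12 at 7919230 to 7936188 on the minus strand. It had control values of 11.1 and 13.2 CPM, CRISPR-DREAM values of 14.6 and 17.6 CPM, SAM system values of 19.0 and 20.7 CPM and dCas9-VPR values of 16.8 and 18.4 CPM. The highest group was thus the SAM system and not CRISPR-DREAM, although no pair of activators differed past the threshold. The log2 fold change was 0.39 (SE 0.12, adjusted p = 0.0326), 0.69 (SE 0.12, adjusted p = 0.00119) and 0.52 (SE 0.12, adjusted p = 0.015) in that order. The CRISPR-DREAM call was lost under 6 of the alternatives, rescaling among them (adjusted p = 0.0864). *SLC2A3* has a near-identical copy, *SLC2A14*, at 0.0688 and 0.345 CPM in the control and up to 1.20 CPM in the other groups, and reads of the pair could be split. The lactate exporter *SLC16A3* lay at 0.551 to 0.861 CPM in every library and was not tested.

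**Figure D2:**
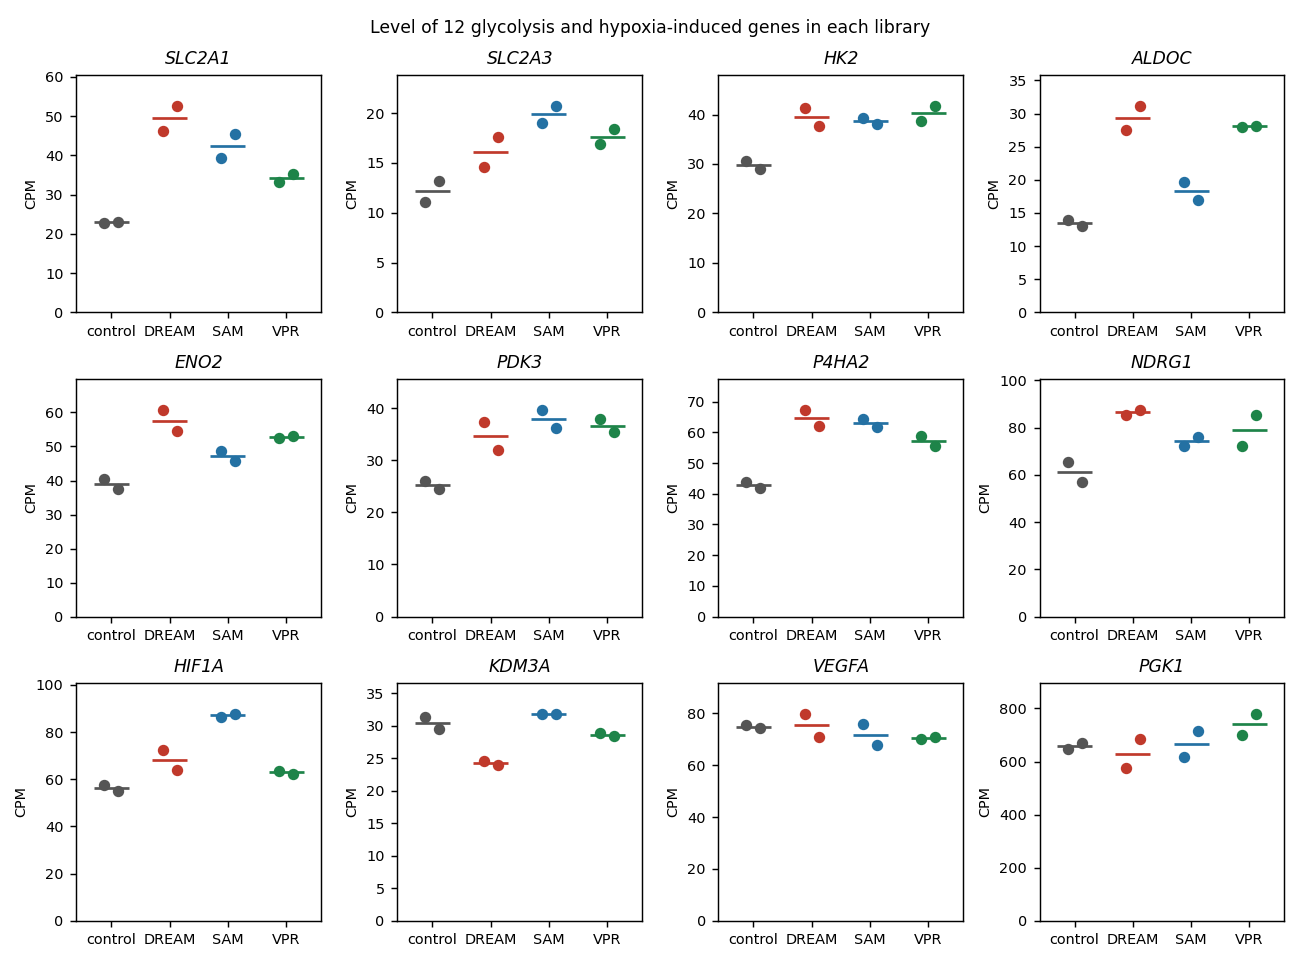
CPM (y axis, from 0) of 12 members in each of the 8 libraries, grouped as control, CRISPR-DREAM (DREAM), SAM system (SAM) and dCas9-VPR (VPR) on the x axis. Points are libraries and lines are means of 2, and *SLC2A1* runs from 22.8 to 52.7 CPM while *VEGFA* stays between 67.8 and 79.8 CPM.

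In upper glycolysis, from hexokinase to triose phosphate isomerase, 2 of 9 members were called higher under CRISPR-DREAM (22.2%, against 18.8% of all genes tested). Under the SAM system 3 were higher (33.3%, against 35.7%), and under dCas9-VPR 5 were higher (55.6%, against 11.0%). With each activator 0 of these members were called lower, against 9.25%, 8.89% and 6.68% of all genes. *ALDOC*, the aldolase isozyme best known from brain, lies on chromosome 17 at 28573115 to 28576949 on the minus strand and has 9 exons in its canonical transcript. It read 14.0 and 13.1 CPM for the control, 27.5 and 31.2 CPM for CRISPR-DREAM, 19.6 and 17.0 CPM for the SAM system and 28.05 and 28.14 CPM for dCas9-VPR. The groups formed a low, a middle and a high level, with CRISPR-DREAM and dCas9-VPR overlapping at the top. The log2 fold change from the control was 1.09 (SE 0.10, adjusted p = 4.3e-05) with CRISPR-DREAM, 0.42 (SE 0.10, adjusted p = 0.00599) with the SAM system and 1.03 (SE 0.10, adjusted p = 0.000223) with dCas9-VPR. The SAM system value dropped to 0.26 after rescaling (adjusted p = 0.0552). *ALDOC* was higher with CRISPR-DREAM than with the SAM system by 0.67 (adjusted p = 0.00631).

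Its abundant partner *ALDOA*, the aldolase of muscle and of most cells, was measured at 908 and 891 CPM in control cells, against 1014 and 1090 CPM with dCas9-VPR, a log2 fold change of 0.22 (adjusted p = 0.017). With the other activators *ALDOA* lay at 912 to 973 CPM, which overlaps neither the control nor dCas9-VPR, and the difference did not pass. A separate row that overlaps *ALDOA* on the same strand, *AC093512.2*, lay at 24.9 and 26.7 CPM in control libraries against 12.6 to 18.1 CPM in the other groups, so reads may be divided differently between the 2 rows.

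*HK2*, the hexokinase isozyme that is induced in many growing cells, was named after its values were seen. It gave 30.7 and 29.0 CPM across the control pair, 41.2 and 37.7 CPM across the CRISPR-DREAM pair, 39.2 and 38.0 CPM across the SAM pair and 38.7 and 41.8 CPM across the dCas9-VPR pair. The 3 activator groups overlapped each other and lay above the control, with log2 fold changes of 0.40 (adjusted p = 0.00366), 0.37 (adjusted p = 0.00338) and 0.43 (adjusted p = 0.00534). *HK1*, the hexokinase of most tissues, was called higher with dCas9-VPR, by 0.23 (adjusted p = 0.0299), and its differences of 0.14 under CRISPR-DREAM and 0.01 under the SAM system did not pass. After rescaling the dCas9-VPR call of *HK1* was lost (0.17, adjusted p = 0.054) and the SAM system value turned to -0.15 and was called lower (adjusted p = 0.048). Of the 3 phosphofructokinases, which commit sugar to glycolysis, *PFKL* was higher with dCas9-VPR by 0.36 (adjusted p = 0.0394) and *PFKM* with the SAM system by 0.17 (adjusted p = 0.0332). *PFKP*, *GPI* and *TPI1* passed in none of the comparisons, and the largest of their differences from the control was 0.26, for *GPI* with dCas9-VPR (adjusted p = 0.0759).

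Lower glycolysis, from *GAPDH* to lactate dehydrogenase, held the most abundant members. Per kilobase of canonical transcript, the control levels were highest for *GAPDH*, at 1642 CPM per kb (SD 68.1, n = 2), followed by *ENO1* at 1202 CPM per kb (SD 5.71, n = 2) and *LDHB* at 860 CPM per kb (SD 10.6, n = 2). With CRISPR-DREAM 2 of the 8 members were called higher, against 18.8% of all genes tested. With the SAM system 2 were higher, against 35.7% of all genes, and 3 were lower, against 8.89%. With dCas9-VPR 3 were higher, against 11.0% of all genes. The share called higher with the SAM system was thus below that of all genes, and the share called lower was above it.

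*GAPDH*, the dehydrogenase often used as a reference transcript (chromosome 12, 6534512 to 6538375, plus strand), lay at 2172 and 2049 CPM in control cells, at 2101 and 2043 CPM under CRISPR-DREAM, at 1959 and 1840 CPM under the SAM system and at 2317 and 2300 CPM under dCas9-VPR. The SAM system libraries were the lowest and the dCas9-VPR libraries the highest, without overlap with the control. It fell by 0.15 with the SAM system (SE 0.05, adjusted p = 0.0289), and the difference of 0.13 with dCas9-VPR did not pass (adjusted p = 0.0925). The direct difference between the SAM system and dCas9-VPR was -0.28 (SE 0.05, adjusted p = 0.00235). *PKM*, pyruvate kinase, and *LDHB*, the heart-type lactate dehydrogenase subunit, also fell with the SAM system, by 0.19 (adjusted p = 0.0356) and 0.12 (adjusted p = 0.0377). Their differences with CRISPR-DREAM, -0.19 and -0.12, were of like size and just missed the threshold (adjusted p = 0.0522 and 0.0528). After rescaling both were called lower with CRISPR-DREAM, at -0.26 for *PKM* (adjusted p = 0.0415) and -0.19 for *LDHB* (adjusted p = 0.0182). The calls of *GAPDH*, *PKM* and *LDHB* with the SAM system held after rescaling, and each was lost without control library 1, among others.

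*PGK1*, phosphoglycerate kinase (chromosome X, 77910739 to 78129296, plus strand), had control values of 648 and 668 CPM, CRISPR-DREAM values of 576 and 683 CPM, SAM system values of 618 and 714 CPM and dCas9-VPR values of 701 and 779 CPM. The CRISPR-DREAM and SAM system libraries overlapped the control, and none of the differences passed. The largest was 0.17 with dCas9-VPR (SE 0.09, adjusted p = 0.222). Its interval in the files overlaps *ATP7A* on the same strand.

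*ENO2*, the enolase isozyme of neurons, was named after its values were seen. It read 40.5 and 37.5 CPM for the control, 60.8 and 54.5 CPM for CRISPR-DREAM, 48.7 and 45.7 CPM for the SAM system and 52.6 and 53.0 CPM for dCas9-VPR. All activator libraries lay above the control, and those of the SAM system lay lowest among them. The log2 fold changes were 0.56 (adjusted p = 0.000509), 0.27 (adjusted p = 0.0139) and 0.43 (adjusted p = 0.00469). The direct difference between CRISPR-DREAM and the SAM system was 0.28 (adjusted p = 0.0389), and after rescaling the SAM system value was 0.11 (adjusted p = 0.201). *ENO1*, the enolase of most cells, lay at 1942 to 2410 CPM and passed in none of the comparisons with the control on the deposited scale. Its SAM system value moved from -0.09 to -0.25 after rescaling and was then called lower (adjusted p = 0.028).

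*LDHA*, the muscle-type lactate dehydrogenase subunit that favors lactate (chromosome 11, 18394560 to 18408426, plus strand, 8 exons in its canonical transcript), gave 722 and 686 CPM across the control pair, 735 and 757 CPM across the CRISPR-DREAM pair, 780 and 790 CPM across the SAM pair and 872 and 911 CPM across the dCas9-VPR pair. The groups stepped up in that order without overlap. The log2 fold change was 0.08 (SE 0.05, adjusted p = 0.209) with CRISPR-DREAM, 0.16 (SE 0.05, adjusted p = 0.0207) with the SAM system and 0.34 (SE 0.05, adjusted p = 0.00178) with dCas9-VPR. The SAM system value turned to -0.0066 after rescaling (adjusted p = 0.94), so its direction depended on the scale, while that of dCas9-VPR stayed at 0.29 (adjusted p = 0.0095).

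A ratio of a pair of genes within a library does not depend on that scale. The ratio of *LDHA* to *LDHB* was 0.639 and 0.617 in the control, 0.709 and 0.741 under CRISPR-DREAM, 0.755 and 0.769 under the SAM system and 0.783 and 0.833 under dCas9-VPR. Every activator library lay above both control libraries. The ratio of *ALDOC* to *ALDOA* had a mean over 2 libraries of 0.0150 (SD 0.000510) in the control, a CRISPR-DREAM mean of 0.0311 (SD 0.00136), a SAM system mean of 0.0198 (SD 0.00242) and a dCas9-VPR mean of 0.0267 (SD 0.00131). For *HK2* to *HK1* the control libraries lay at 0.219 and 0.227 and the activator libraries at 0.247 to 0.290, and for *ENO2* to *ENO1* at 0.0175 and 0.0190 against 0.0218 to 0.0302. The ratio of *SLC2A1* to *SLC2A3* lay apart from the control with CRISPR-DREAM, at 3.17 and 2.998 against 2.06 and 1.75. With the SAM system it lay just above the control, at 2.07 and 2.19. With dCas9-VPR it overlapped the control, at 1.97 and 1.92. With 2 libraries against 2 an exact permutation test cannot go below p = 0.333, so the ratios are given without a test.

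**Figure D3:**
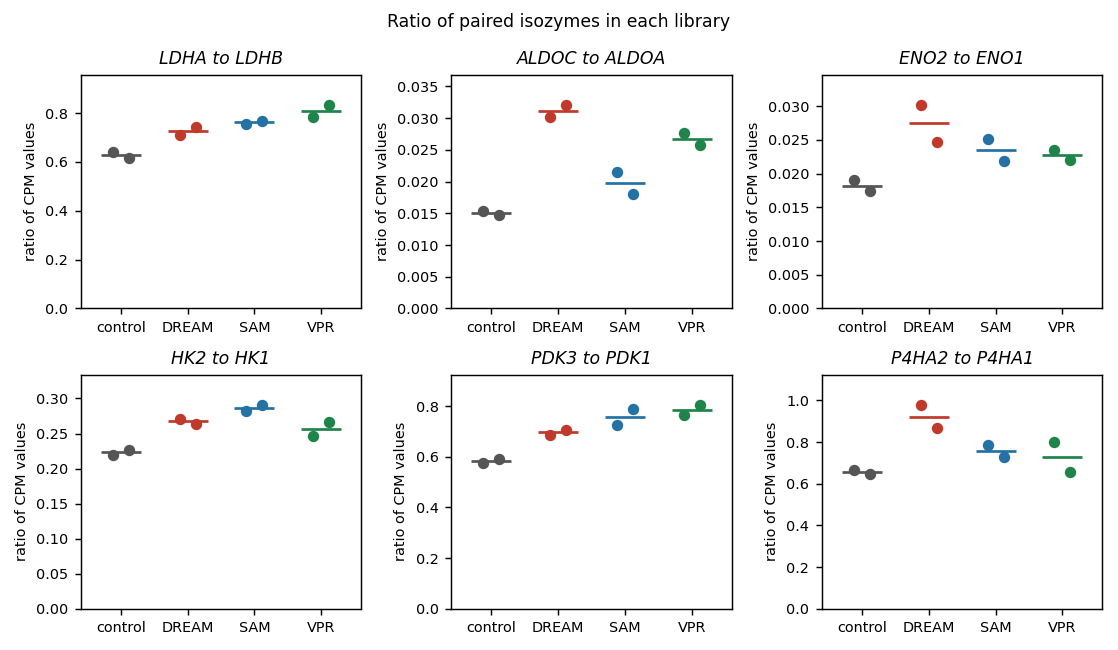
Ratio of the CPM values of paired isozymes (y axis, from 0) in each of the 8 libraries, by group (x axis), with points for libraries and lines for means of 2. The *LDHA* to *LDHB* ratio runs from 0.617 in a control library to 0.833 in a dCas9-VPR library, and for *P4HA2* to *P4HA1* the dCas9-VPR libraries, at 0.798 and 0.657, reach down to the control.

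Among the kinases that set glycolytic flux or the entry of pyruvate into mitochondria, 1 of 4 was called higher with each activator. That gene was *PDK3*, a kinase that inhibits pyruvate dehydrogenase, and it was named after its values were seen. It lay at 26.1 and 24.5 CPM in control cells, at 37.3 and 32.0 CPM under CRISPR-DREAM, at 39.7 and 36.1 CPM under the SAM system and at 37.8 and 35.5 CPM under dCas9-VPR. All activator libraries lay above the control and the 3 activator groups overlapped, with log2 fold changes of 0.44 (adjusted p = 0.005), 0.57 (adjusted p = 0.000768) and 0.53 (adjusted p = 0.00452). The related *PDK1*, a known HIF target, lay at 41.4 and 45.4 CPM in the control and 44.1 to 54.6 CPM elsewhere, and passed in none of the comparisons. The ratio of *PDK3* to *PDK1* was 0.574 and 0.591 in the control and 0.687 to 0.803 in the activator libraries. *PFKFB3* and *PFKFB4* make and break fructose 2,6-bisphosphate, the activator of phosphofructokinase. *PFKFB4* fell by 0.27 with the SAM system, at the edge of the threshold (adjusted p = 0.05 when rounded), and this call was lost under 10 of the alternatives (adjusted p = 0.197 without SAM system library 1). *PFKFB3* did not pass against the control.

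In the oxygen-sensing machinery *HIF1A*, which encodes the HIF-1α subunit, was highest with the SAM system. The gene lies on chromosome 14 at 61695513 to 61748260 on the plus strand and has 15 exons in its canonical transcript. It had control values of 57.6 and 55.2 CPM, CRISPR-DREAM values of 72.3 and 63.7 CPM, SAM system values of 86.5 and 87.7 CPM and dCas9-VPR values of 63.6 and 62.3 CPM. The SAM system libraries stood apart from all others, and every activator library lay above the control. The log2 fold change was 0.62 (SE 0.07, adjusted p = 0.000122) with the SAM system and 0.27 (SE 0.07, adjusted p = 0.0161) with CRISPR-DREAM, and the 0.16 with dCas9-VPR did not pass (adjusted p = 0.135). The CRISPR-DREAM call was lost without control library 2 (adjusted p = 0.11) and without CRISPR-DREAM library 1. *HIF1A* was higher with the SAM system than with CRISPR-DREAM (-0.36 for CRISPR-DREAM against the SAM system, adjusted p = 0.0144) and than with dCas9-VPR (0.47, adjusted p = 0.00105).

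*EGLN1* encodes PHD2, the main oxygen sensor (chromosome 1, 231363751 to 231422288, minus strand). It read 70.2 and 63.5 CPM for the control, 74.4 and 68.6 CPM for CRISPR-DREAM, 80.1 and 71.8 CPM for the SAM system and 76.7 and 75.6 CPM for dCas9-VPR. None of its differences from the control passed, with log2 fold changes of 0.10, 0.18 and 0.19 (adjusted p = 0.361, 0.071 and 0.105). *EGLN3*, a hydroxylase that is itself induced by HIF, lay at 6.49 to 11.1 CPM and did not pass either.

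Neither of the 2 secreted factors tested passed with any activator on the deposited scale, and each was called lower in at least 1 comparison after rescaling. *VEGFA*, the angiogenic growth factor (chromosome 6, 43770184 to 43786488, plus strand, 8 exons in its canonical transcript), gave 75.3 and 74.2 CPM across the control pair, 79.8 and 70.9 CPM across the CRISPR-DREAM pair, 75.7 and 67.8 CPM across the SAM pair and 70.1 and 70.7 CPM across the dCas9-VPR pair. The first 2 of these activator groups overlapped the control. Its log2 fold changes were 0.01 (SE 0.07, adjusted p = 0.947), -0.06 (SE 0.07, adjusted p = 0.517) and -0.09 (SE 0.07, adjusted p = 0.437). The rescaled SAM system value was -0.23 (adjusted p = 0.0194). The vasodilator peptide gene *ADM* lay at 7.14 and 7.66 CPM in the control and 5.40 to 7.83 CPM elsewhere, with differences of -0.33 (adjusted p = 0.0875) with CRISPR-DREAM and -0.31 (adjusted p = 0.0799) with the SAM system, which became -0.40 (adjusted p = 0.0443) and -0.46 (adjusted p = 0.0175) after rescaling. *ANGPTL4*, an inhibitor of lipoprotein lipase, lay at 0.128 to 0.773 CPM and was not tested, and 3 reads correspond to 0.0853 to 0.105 CPM in these libraries.

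The hypoxia effectors divided. *P4HA2* encodes a subunit of the prolyl hydroxylase that modifies collagen, and lies on chromosome 5 at 132190147 to 132295316 on the minus strand. It lay at 43.9 and 42.0 CPM in control cells, at 67.4 and 62.1 CPM under CRISPR-DREAM, at 64.4 and 61.8 CPM under the SAM system and at 58.7 and 55.7 CPM under dCas9-VPR. The activator libraries all lay above the control. The log2 fold change was 0.59 (SE 0.07, adjusted p = 0.00019), 0.55 (SE 0.07, adjusted p = 0.000201) and 0.41 (SE 0.07, adjusted p = 0.00362) in that order. The interval of *P4HA2* overlaps *PDLIM4* on the opposite strand, and *PDLIM4* moved from 10.0 and 9.19 CPM in control cells to 20.4 and 21.0 CPM under CRISPR-DREAM and to 22.4 and 19.7 CPM under the SAM system (log2 fold changes of 1.07 and 1.09), and read 11.9 and 11.6 CPM under dCas9-VPR. The library kit keeps strand, but whether the counting used it is not given in the sources used here. *P4HA1*, which encodes a related alternative subunit, was higher with the SAM system by 0.34 (adjusted p = 0.00329) and with dCas9-VPR by 0.27 (adjusted p = 0.0276). Both calls were lost after rescaling.

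*NDRG1*, a stress-responsive gene, was named after its values were seen. It had control values of 65.4 and 56.9 CPM, CRISPR-DREAM values of 85.4 and 87.6 CPM, SAM system values of 72.4 and 76.2 CPM and dCas9-VPR values of 72.1 and 85.5 CPM. The log2 fold changes were 0.50 (adjusted p = 0.00239), 0.28 (adjusted p = 0.025) and 0.36 (adjusted p = 0.0205), and that of the SAM system was 0.12 after rescaling (adjusted p = 0.32). *KDM3A*, a histone H3K9 demethylase known as a HIF target, was the 1 member called lower with CRISPR-DREAM and was also named after its values were seen. Its levels were 31.4 and 29.6 CPM in control cells, 24.6 and 24.0 CPM under CRISPR-DREAM, 31.8 and 31.8 CPM under the SAM system and 28.9 and 28.4 CPM under dCas9-VPR. The CRISPR-DREAM libraries lay below all others, by 0.32 against the control (adjusted p = 0.00817, and 0.0597 without control library 1) and by 0.38 against the SAM system (adjusted p = 0.0135).

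*BNIP3* and *BNIP3L* encode related receptors for mitophagy. *BNIP3L* was higher with dCas9-VPR, at 62.7 and 63.6 CPM against 52.2 and 54.4 CPM in the control (0.24, adjusted p = 0.0204), a call lost after rescaling (adjusted p = 0.0558). *BNIP3*, at 63.2 to 71.4 CPM in all libraries, passed in none of the comparisons. *ANKRD37*, a small ankyrin-repeat gene, lay at 1.36 to 2.30 CPM. *INSIG2*, which retains sterol sensors in the endoplasmic reticulum, and *MXI1*, a MYC antagonist, lay at 17.2 to 20.6 CPM and 24.5 to 30.9 CPM, and these 3 genes did not pass against the control.

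The activators were then compared directly, which leaves the control libraries out of the difference. CRISPR-DREAM and the SAM system differed in 4 of the 37 members (10.8%, against 10.7% of all genes tested), *ALDOC* and *ENO2* higher and *HIF1A* and *KDM3A* lower with CRISPR-DREAM. CRISPR-DREAM and dCas9-VPR differed in 4 members (10.8%, against 13.1%), with *SLC2A1* higher and *BNIP3L* (-0.33, adjusted p = 0.00665), *LDHA* (-0.26, adjusted p = 0.00752) and *PKM* (-0.33, adjusted p = 0.0111) lower with CRISPR-DREAM. Both shares were close to or below those of all genes.

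The SAM system and dCas9-VPR differed in more members. Of the 37, 12 were lower with the SAM system (32.4%, against 6.32% of all genes tested) and 3 were higher (8.11%, against 23.6%), and the members' median difference was -0.10, beside 0.10 over all genes. After rescaling 16 were lower and 1 was higher, against 2040 lower and 2261 higher of all 15122 genes. All 9 members of upper glycolysis and all 8 of lower glycolysis had negative differences, of which 4 and 5 passed, and these passed on the rescaled values too. They were *HK1* (-0.22), *PFKL* (-0.33), *ALDOA* (-0.18) and *ALDOC* (-0.61) in the upper part, and *GAPDH* (-0.28), *PGAM1* (-0.21), *ENO1* (-0.20), *PKM* (-0.33) and *LDHA* (-0.18) in the lower part. The other 3 members lower with the SAM system were *PFKFB3*, *PFKFB4* and *BNIP3L*. Higher with the SAM system were *HIF1A*, *SLC2A1* (0.30, adjusted p = 0.0295) and *MXI1* (0.28, adjusted p = 0.0223), and of these *HIF1A* passed on the rescaled values too (adjusted p = 0.00236). With all libraries 15 members differed between the SAM system and dCas9-VPR. Fewer differed when any 1 library of the SAM system or of dCas9-VPR was left out, and calls over all genes fell in these refits too. The members' median difference was -0.09 and -0.11 without SAM system library 1 and 2, and -0.15 and -0.08 without dCas9-VPR library 1 and 2. Over all genes it was 0.09 to 0.11 in these refits. Of the enzymes named above, *ALDOC* and *GAPDH* were still called in each of these refits, which leave 1 library in a group.

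**Figure D4:**
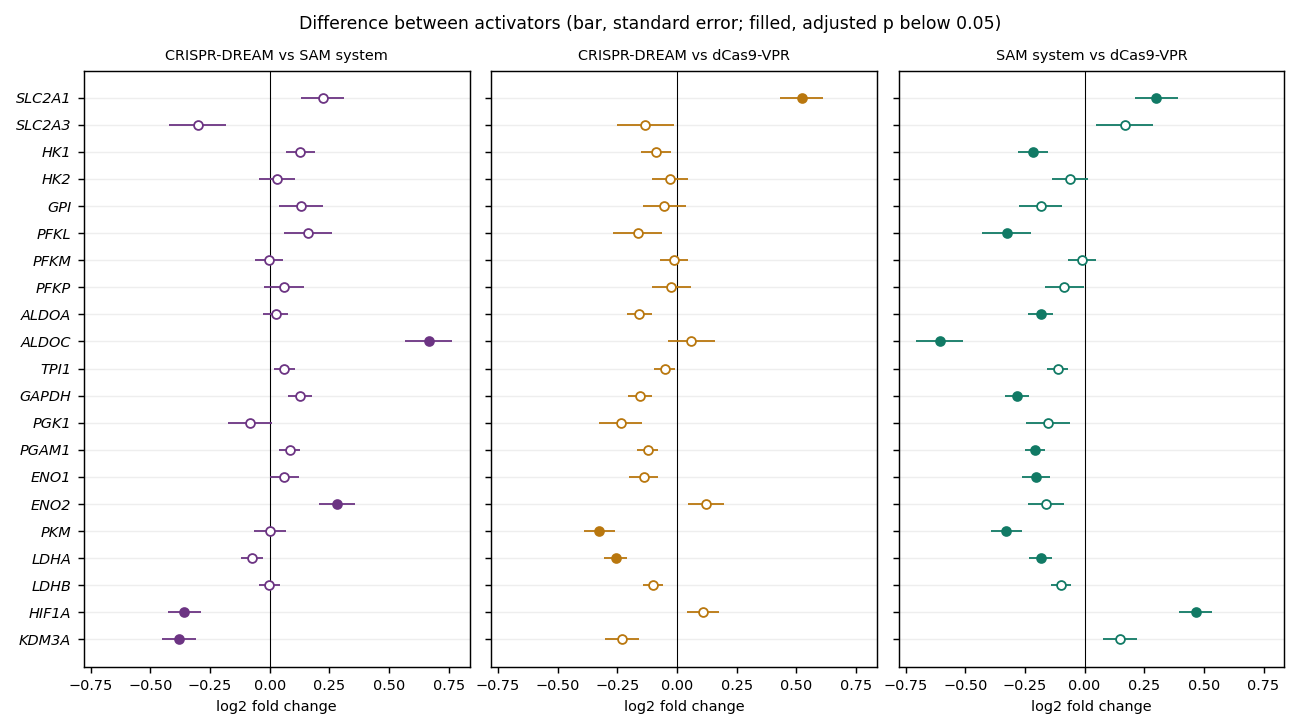
Log2 fold change between pairs of activators (x axis, the first named minus the second) for the transporters and enzymes tested and for *HIF1A* and *KDM3A* (y axis), with bars for standard errors and filled points for an adjusted p below 0.05. In the panel of the SAM system against dCas9-VPR the enzymes lie left of 0, from -0.01 for *PFKM* to -0.61 for *ALDOC*, and *HIF1A* lies at 0.47.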

How the data were processed

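Total RNA libraries (the labels also say polyA RNA) of 75-base reads were made from 8 samples in 4 groups of 2, grouped from their labels. The authors aligned reads with STAR 2.7.3a to hg38 and Gencode 36, quantified them by a Bayesian method and deposited CPM values with 0.0001 added to each gene. The authors used DESeq2 3.5 for their own calls, and whether counting used strand is not given in the sources used here. Of low values, 62.0% to 66.4% were whole multiples of 1 read (tolerance 0.02 reads), so reads were not recovered and no count model was run.

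Log2(CPM + 0.5) was fitted with limma 3.58.1 (trend, robust) in R 4.3.3, all 4 groups in 1 model (4 residual degrees of freedom) and 6 contrasts. The 15122 genes that reached 1 CPM in 2 or more libraries were tested. P-values were two-sided and adjusted by Benjamini-Hochberg over all genes tested. Full values are given for members past a fold of 1.5 in a comparison with the control and for *HIF1A*, *VEGFA*, *SLC2A1*, *PGK1*, *LDHA*, *GAPDH* and *EGLN1*. Members and lists were chosen with earlier results of these data known. Lengths and exons came from Gencode 44. The fit was tested on simulated data. Alternatives were the scaling, pseudocount, filter, library sizes, threshold, libraries in the fit, replicate block and leaving out each library.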

Additional observations from a re-analysis of the deposited data

How the results depend on the processing

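With a fold change above 2 the members higher and lower were 2 and 0 with CRISPR-DREAM and 0 and 0 with the SAM system, 1 was higher with dCas9-VPR, and 0 differed in each of the 3 pairs of activators. With a fold change above 1.5 the numbers were 3 and 0, 3 and 0, and 1, with 1, 0 and 1 for CRISPR-DREAM against the SAM system, CRISPR-DREAM against dCas9-VPR and the SAM system against dCas9-VPR. Over all 15122 genes, 309 were higher and 76 lower with CRISPR-DREAM past 2, 588 and 69 with the SAM system, and 70 were higher with dCas9-VPR. Past 1.5 these were 982 and 378, 1919 and 274, and 366. For the pairs, in the order above, 18 genes were higher and 91 lower past 2, 109 and 2, and 343 and 6. Past 1.5 they were 56 and 442, 406 and 128, and 1246 and 85. Median-of-ratios scaling gave 4 lower with CRISPR-DREAM and 6 higher and 10 lower with the SAM system, and of 65 calls over the 6 comparisons 14 were lost. *LDHA* with the SAM system reversed to -0.0066 (adjusted p = 0.94). The shift of the all-gene median with the SAM system, 0.16 on the deposited scale, accounts for this change by construction. With only the 4 libraries compared, 1 member differed between CRISPR-DREAM and the SAM system, against 64 higher and 430 lower of 14859 genes. Fits of this kind had 20 members higher with dCas9-VPR, against 2407 of 14412 genes. They had 7 higher and 1 lower with CRISPR-DREAM (1918 and 961 of 14592 genes) and 12 and 3 with the SAM system (5531 and 1452 of 14873).

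When the 8 libraries were dropped singly there were 8 to 10 members higher and 0 to 2 lower with CRISPR-DREAM, 7 to 14 higher and 0 to 4 lower with the SAM system, 6 to 18 higher with dCas9-VPR, 0 to 4 that differed between CRISPR-DREAM and the SAM system, 0 to 6 between CRISPR-DREAM and dCas9-VPR, and 3 to 14 between the SAM system and dCas9-VPR. None of the 65 calls changed sign in these refits. Each refit had fewer libraries, and the cause of the differing counts was not tested. Pseudocounts of 0.1 and 1, filters of none and of 10 CPM and library sizes without the target and effector genes each lost at most 2 of the 65 calls.

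The labels number the libraries 1 and 2 in every group without saying what a number shares, so the pairing is not established. Differences between library 1 and 2 correlated between groups at 0.133 to 0.326 over 15122 genes. With the replicate block 16 members were higher and 4 lower with CRISPR-DREAM, and 27 were higher with dCas9-VPR. With the SAM system 18 were higher and 6 lower. Between activators 12 differed for CRISPR-DREAM against the SAM system and 16 for CRISPR-DREAM against dCas9-VPR. For the SAM system against dCas9-VPR 4 were higher and 17 lower. None of the 65 calls was lost. Calls over all 15122 genes rose as well with the block, to 4444 higher and 2312 lower with CRISPR-DREAM and 3735 higher with dCas9-VPR. With the SAM system they were 6799 higher and 1980 lower. For the 3 pairs of activators, in the same order, they were 987 higher and 3630 lower, 2512 and 1975, and 5081 and 1814. With the block *PGK1* was called higher with dCas9-VPR (adjusted p = 0.00272), *EGLN1* with the SAM system and dCas9-VPR (adjusted p = 0.00351 and 0.00474), and *PKM*, *LDHB* and *ADM* were called lower with CRISPR-DREAM (adjusted p = 6.86e-05, 0.00373 and 0.0308). With only the 4 libraries compared, *PGK1* and *EGLN1* were also called higher with dCas9-VPR, so these calls depend on the fit used.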

Other observations

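A further 46 genes of the same pathways, in 3 lists that hold other isozymes and mitochondrial pyruvate genes, other parts of the HIF pathway, and further hypoxia-induced genes, were counted beside the members, and 36 of them passed the filter. Each activator was compared with the same control libraries. With CRISPR-DREAM 4 were called higher (11.1%, against 18.8% of all genes tested) and 7 lower (19.4%, against 9.25%). With the SAM system 8 were higher (22.2%, against 35.7%) and 5 lower (13.9%, against 8.89%). With dCas9-VPR 5 were higher (13.9%, against 11.0%) and 3 lower (8.33%, against 6.68%). The median log2 fold changes of the 36 genes were -0.04, 0.06 and 0.05, beside 0.06, 0.16 and 0.06 over all genes. Of 14 tested genes of glycolysis and pyruvate entry, 1 was higher (7.14%) and 2 were lower (14.3%) with CRISPR-DREAM. Under the SAM system 4 were higher (28.6%) and 2 lower (14.3%), and under dCas9-VPR 2 were higher (14.3%) and 0 lower. Of 7 tested genes of the HIF pathway, 1 was higher (14.3%) and 2 were lower (28.6%) with CRISPR-DREAM. Under the SAM system 1 was higher (14.3%) and 1 lower (14.3%), and under dCas9-VPR 0 were higher and 1 lower (14.3%). Of 15 further hypoxia-induced genes tested, 2 were higher (13.3%) and 3 lower (20.0%) with CRISPR-DREAM. Under each of the other activators 3 were higher (20.0%) and 2 lower (13.3%). The shares over all genes are those given above.

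From the further hypoxia-induced genes, *GYS1*, *GBE1* and *DDIT4* were named after their values were seen. *GYS1*, the glycogen synthase of muscle and most tissues, was measured at 38.4 and 33.3 CPM in the control, 71.3 and 69.1 CPM with CRISPR-DREAM, 63.7 and 62.8 CPM with the SAM system and 53.9 and 52.1 CPM with dCas9-VPR. Its log2 fold changes were 0.96 (adjusted p = 1.71e-05), 0.81 (adjusted p = 4.26e-05) and 0.56 (adjusted p = 0.00132), and the groups did not overlap. *GBE1*, the glycogen branching enzyme, lay at 30.0 and 25.3 CPM in the control and 35.6 to 44.1 CPM in the activator libraries, with log2 fold changes of 0.51, 0.61 and 0.42 (adjusted p = 0.00248, 0.000589 and 0.0134). *DDIT4*, an inhibitor of mTORC1 that hypoxia is known to induce, went the other way. It lay at 634 and 646 CPM in the control, 353 and 396 CPM with CRISPR-DREAM, 419 and 408 CPM with the SAM system and 497 and 531 CPM with dCas9-VPR, and fell by 0.77, 0.63 and 0.32 (adjusted p = 1.73e-05, 5.31e-05 and 0.00684). These 9 calls held after median-of-ratios scaling. With dCas9-VPR, leaving out 1 library took the adjusted p to at most 0.0245 for *GYS1*, 0.127 for *GBE1* and 0.0888 for *DDIT4*.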
